A study of Mus musculus with 6 samples.

Results

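Genes of the Nodal and Lefty pathway, 9 of the 20805 named genes on the arrays, were examined in mouse embryoid bodies without TET enzymes. They were the ligands Nodal and Gdf3, the secreted inhibitors Lefty1, Lefty2 and Cer1, the co-receptor Tdgf1, the transcription factor Foxh1, the intracellular inhibitor Smad7 and the convertase Furin. Every probe whose RefSeq accession belongs to one of these genes was taken, 12 of 55418 probes, with 3 probes for Tdgf1, 2 for Gdf3 and 1 for each other gene. All 12 were well above background on all 6 arrays and none was saturated, so every member passed the filter on dim probes.

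Embryoid bodies are floating aggregates of differentiating embryonic stem cells. The samples came from 2 triple-knockout lines of genotype Tet1/2/3 triple knockout, TKO_26 and TKO_29 (TKO#26 and TKO#29 in the labels), and from 1 wild-type (WT) line, all of a mixed 129/C57BL6 background. Cells of each line grew without the self-renewal factor LIF, for 2 days as hanging drops and then 8 days in suspension, and total RNA was taken at day 10. Each line had 2 arrays, which the series calls technical replicas. The replicate count over lines was therefore 2 for TKO and 1 for WT, and a p-value over arrays covers at most the spread within lines. All arrays lay on 1 slide, with WT arrays in one column and TKO arrays in the other, so slide position and genotype cannot be told apart.

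Nodal is a secreted ligand of the TGF-beta family that acts through activin receptors and the co-receptor Tdgf1 (Cripto) to activate SMAD2 and SMAD3. With Foxh1 these turn on target genes that include Nodal itself and the Lefty genes, whose products block Nodal, so the pathway drives and limits itself. In the early mouse embryo it patterns the epiblast and the anterior visceral endoderm, starts the primitive streak and later sets the left side of the body. Embryonic stem cells also express Nodal, Lefty1, Lefty2, Tdgf1 and Gdf3.

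Values are log2 signals relative to each array's 75th percentile over probes well above background on all arrays, so 0 is that percentile and 1 unit is a 2-fold step. A probe "rose" or "fell" where each TKO line differed from WT by at least 2-fold in the same direction with a limma adjusted p under 0.05. Among 28267 probes tested, 4.09% rose and 5.93% fell, which is 1156 and 1676 probes (370 and 997 with normexp background correction). From 38.4% to 55.8% of spots were well above background per array. Repeated probes varied most on TKO_26 replicate 1, with a median coefficient of variation of 14.2% against 4.63% to 5.66% on the other arrays. Of the targeted genes, Tet1 fell on its brighter probe (-1.02 in TKO_26 and -1.69 in TKO_29). That call was lost under other scalings (TKO_26 difference -0.86 to -0.98) and without any 1 array other than WT replicate 2 (-0.88 to -1.10). The dimmer Tet1 probe, well above background on all 6 arrays, did not fall (-0.08 and 0.23, limma adjusted p = 0.859 and 0.528). Tet2 fell on both its probes, with differences of -1.09 in TKO_26 and -1.90 in TKO_29 on the brighter and -1.25 and -1.5 on the dimmer. Both Tet2 calls were lost with the authors' deposited matrix values (TKO_26 difference short of 2-fold on each), the brighter one also without TKO_26 replicate 1, TKO_29 replicate 2 or either WT array (-0.97 to -1.21), and the dimmer one with normexp (-0.82). The 3 Tet3 probes did not move together. The brightest differed by 1.05 in TKO_26 and -0.62 in TKO_29 and passed in neither. The second, well above background on 3 arrays, fell by 1.26 and 1.60, a call that was lost with normexp (-0.35 and -1.10), with the matrix values and without any 1 array other than TKO_26 replicate 1. The dimmest, well above background on 2 arrays, was at -2.60 and -4.42 and passed in TKO_29 only. Probe positions on these transcripts were not used here, so the probes check the labels only in part.

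Of the 12 member probes 4 passed the rule, beside 10.0% of all probes: 1 Gdf3 probe and 2 Tdgf1 probes rose and the Cer1 probe fell. Lefty1 and Lefty2 were higher in both lines by less than 2-fold, each with an adjusted p under 0.05. Nodal and Foxh1 differed little from WT, and Smad7 and Furin were lower without passing in both lines. Against WT, 4 member probes passed in TKO_26, beside 12.7% of all probes, and 6 in TKO_29, beside 20.2%. The 3 that rose in both lines are 25% of the member probes, beside the 4.09% of all probes, and the 1 that fell is 8.33%, beside 5.93%. The median difference of the 12 probes was 0.66 in TKO_26 and 0.46 in TKO_29, beside 0.04 and -0.03 for all probes tested. Tdgf1 counts 3 times and Gdf3 2 times in these values. With each gene on its brightest probe, 1 of the 9 genes rose (Gdf3) and 1 fell (Cer1), which is 11.1% each, beside 3.97% and 8.03% of named genes. The median over the 9 genes was 0.31 in TKO_26 and 0.18 in TKO_29, beside -0.01 and -0.04 over named genes. These counts depended on single arrays: of the 4, none (0) passed without TKO_29 replicate 2, 1 each passed without TKO_29 replicate 1 and without WT replicate 1, and 2 without either TKO_26 array.

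**Figure D1:**
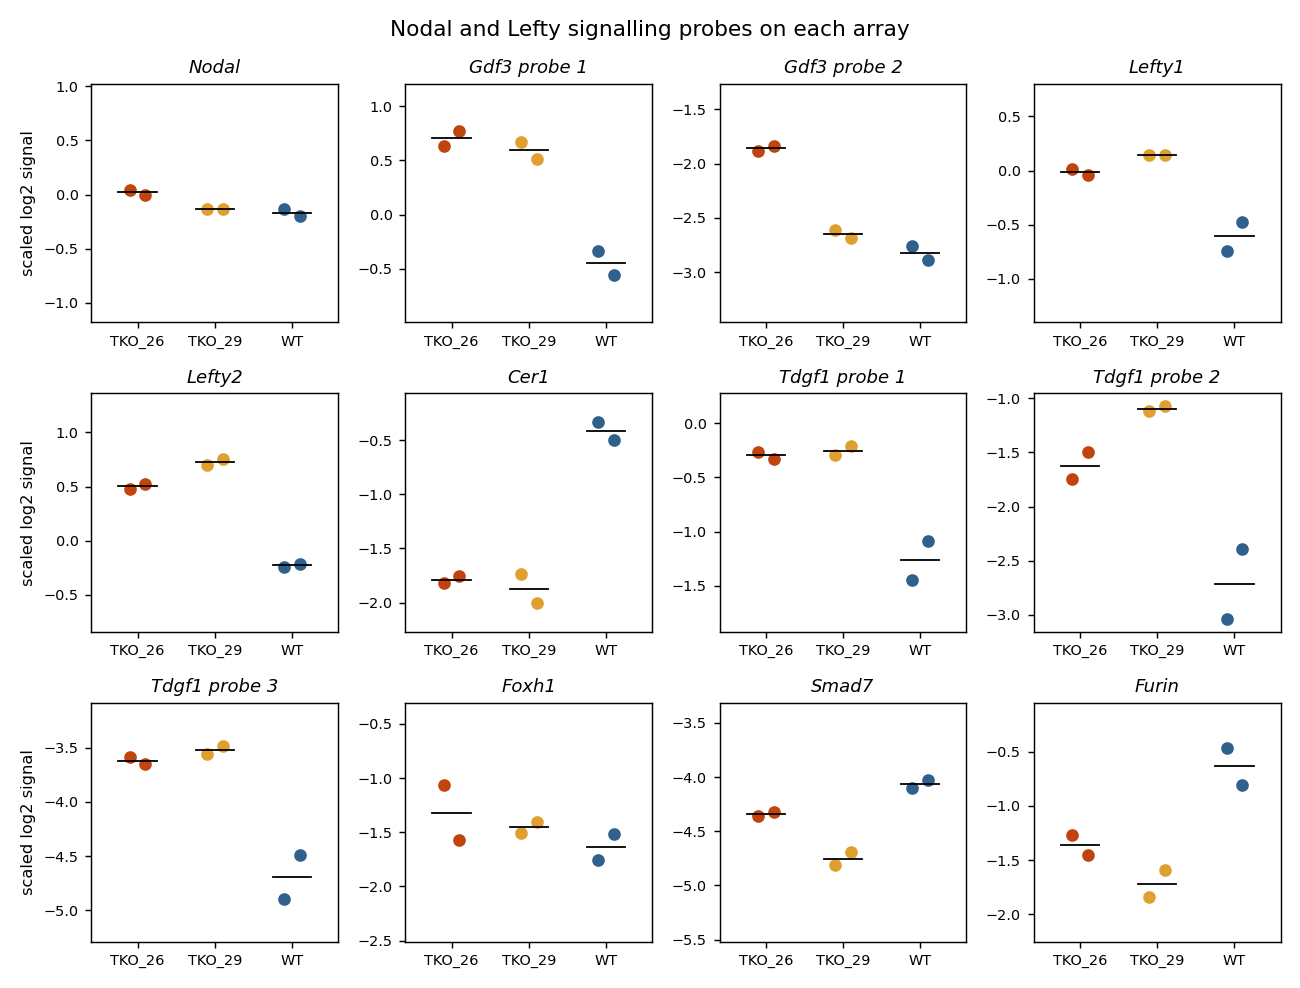
Scaled log2 signal (y axis, each panel on its own range) of the 12 member probes on each array (points), by line (TKO_26, TKO_29, WT), with the line mean as a bar. TKO arrays lie well above WT for Gdf3 probe 1, Lefty1, Lefty2 and Tdgf1 and below it for Cer1, Smad7 and Furin, while those of TKO_29 meet WT for Nodal and Foxh1 overlaps. Panels do not compare levels between probes.

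Nodal, the ligand that gives the pathway its name, was nearly level. Its scaled signal was 0.05 and -0.0029 on the TKO_26 arrays and -0.13 and -0.14 on the TKO_29 arrays, against -0.14 and -0.20 on the WT arrays. The TKO_29 values thus lay next to the WT values, with those of TKO_26 slightly above. The difference from WT was 0.19 ± 0.12 (SE) in TKO_26, with a 95% interval of -0.12 to 0.49, and 0.03 ± 0.12 in TKO_29, with an interval of -0.27 to 0.34. Neither passed (limma adjusted p = 0.317 and 0.840 over arrays), and both intervals lie within a 2-fold change.

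Gdf3, a TGF-beta ligand that can signal through the same receptors, was measured by a pair of probes that gave unlike differences in TKO_29. The brighter probe read 0.63 and 0.77 in TKO_26 and 0.67 and 0.52 in TKO_29, against -0.34 and -0.55 in WT. All TKO arrays lay above both WT arrays, and the probe rose 2.22-fold in TKO_26 and 2.05-fold in TKO_29 (log2 1.15 ± 0.15 and 1.04 ± 0.15, SE; limma adjusted p = 0.00971 and 0.00886). The TKO_29 call was lost without TKO_29 replicate 1 (0.96, adjusted p = 0.0685), without TKO_29 replicate 2 (1.11, adjusted p = 0.0650) and without WT replicate 2 (0.93, under 2-fold).

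The dimmer Gdf3 probe read -1.88 and -1.84 in TKO_26 and -2.61 and -2.69 in TKO_29, against -2.76 and -2.89 in WT. Only TKO_26 stood clearly above WT on it, by 0.97 ± 0.13, just under 2-fold (limma adjusted p = 0.00958), whereas TKO_29 differed by 0.18 ± 0.13 (adjusted p = 0.305). The TKO lines differed from each other by 0.79 on this probe, which did not pass (adjusted p = 0.0696), and by 0.11 on the brighter one (adjusted p = 0.670). Which parts of the transcript the probes cover was not examined.

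Gdf3 lies on mouse chromosome 6 among genes that also rose. In the RefSeq gene order its nearest protein-coding neighbours with a tested probe are Apobec1, a cytidine deaminase that edits mRNA, on one side and Dppa3, a maternal and germ cell factor, with Nanog, a core pluripotency factor, on the other. Apobec1 rose by 1.51 in TKO_26 and 1.31 in TKO_29, Dppa3 by 2.59 and 2.14, and Nanog by 2.29 and 1.76 on its brighter probe (0.18 and -0.48 on the dimmer, which did not pass). Slc2a3, a glucose transporter gene beyond Nanog, differed by -0.10 and -1.21 without passing. The calls of Apobec1 and Nanog were lost without either TKO_29 array (TKO_29 adjusted p = 0.0521 to 0.0696), and that of Apobec1 also with normexp (TKO_29 0.88). Neighbours were looked up after the members' values had been seen.

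Lefty1 and Lefty2 encode secreted antagonists that bind Nodal and its co-receptors and are themselves induced by Nodal signalling. Lefty1 read 0.01 and -0.04 in TKO_26 and 0.15 and 0.14 in TKO_29, against -0.74 and -0.47 in WT. Lefty2 read 0.48 and 0.52 in TKO_26 and 0.69 and 0.76 in TKO_29, against -0.24 and -0.21 in WT. For both genes every TKO array lay above both WT arrays, and TKO_29 lay above TKO_26.

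The difference of Lefty1 from WT was 1.51-fold in TKO_26 and 1.68-fold in TKO_29 (log2 0.59 ± 0.14 and 0.75 ± 0.14, SE; limma adjusted p = 0.0479 and 0.0182). That of Lefty2 was 1.66-fold and 1.94-fold (log2 0.73 ± 0.12 and 0.95 ± 0.12; adjusted p = 0.0172 and 0.00620). Neither reached 2-fold in both lines, and the difference between the TKO lines passed for neither gene (adjusted p = 0.521 for Lefty1 and 0.296 for Lefty2). Counting probes of any size with adjusted p under 0.05 in both lines, 6 of the 12 member probes were higher, beside 8.03% of all probes, and 1 was lower, beside 9.41%, which makes 7 in all, beside 17.4%. Lefty1 and Lefty2 are close paralogues, and how far each probe reads the other's RNA was not tested. Both lie on chromosome 1.

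Cer1, which encodes a secreted protein that binds Nodal and BMPs and is made by the anterior visceral endoderm and definitive endoderm, went the other way from the Lefty genes. It read -1.82 and -1.76 in TKO_26 and -1.74 and -2.00 in TKO_29, against -0.34 and -0.50 in WT. Every TKO array was below both WT arrays. Cer1 fell 2.59-fold in TKO_26 and 2.74-fold in TKO_29 (log2 -1.37 ± 0.15 and -1.45 ± 0.15, SE; limma adjusted p = 0.00643 and 0.00430). Its call was lost without WT replicate 1 (TKO_26 difference -1.29, adjusted p = 0.0524) and without TKO_29 replicate 2 (TKO_29 difference -1.32, adjusted p = 0.0506).

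Markers of visceral endoderm moved with Cer1. Of 10 such genes, 9 fell and none rose, with median differences of -4.17 in TKO_26 and -3.92 in TKO_29, and the exception Hhex was at -1.23 and -0.98. Over both lines Ttr, a serum transport protein, fell 40.4-fold on average and Afp, the fetal serum protein, was at least 29.7-fold lower. Summed over the list, the linear scaled signal was 0.576 to 0.593 in TKO_26 and 0.663 to 0.675 in TKO_29, against 4.98 to 5.08 in WT. The defining markers Afp and Apob had no TKO array well above background. Without WT replicate 1 or TKO_29 replicate 2 the calls numbered 7, and that of Afp was lost without WT replicate 1 (TKO_26 limma adjusted p = 0.0550). The part of this in the Cer1 result was not tested. In whole embryoid bodies, fewer cells of a type and less RNA per cell cannot be told apart.

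Tdgf1, the membrane-anchored co-receptor that Nodal needs to engage its receptors, stood higher on all 3 of its probes. The brightest read -0.27 and -0.33 in TKO_26 and -0.30 and -0.21 in TKO_29, against -1.44 and -1.09 in WT. The second read -1.75 and -1.49 in TKO_26 and -1.12 and -1.07 in TKO_29, against -3.04 and -2.39 in WT. The dimmest read -3.59 and -3.65 in TKO_26 and -3.56 and -3.48 in TKO_29, against -4.90 and -4.49 in WT. On each probe all TKO arrays lay above both WT arrays, and WT replicate 1 was the lowest array.

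The second probe rose 2.14-fold in TKO_26 and 3.07-fold in TKO_29 (log2 1.09 ± 0.25 and 1.62 ± 0.25, SE; limma adjusted p = 0.0405 and 0.0104). The dimmest rose 2.10-fold and 2.26-fold (log2 1.07 ± 0.18 and 1.17 ± 0.18; adjusted p = 0.0181 and 0.0101). The brightest passed in TKO_29 (2.02-fold, adjusted p = 0.0121) and was 1.96-fold higher in TKO_26 (adjusted p = 0.0197), short of 2-fold. With each array's 75th percentile taken over all probes instead, the brightest probe passed in both lines. On none of the 3 did the TKO lines differ past the threshold (adjusted p = 0.274 to 0.882). The calls of the second and dimmest probes were lost without any 1 array other than WT replicate 2, where the differences still lay between 0.77 and 1.64 on the second probe and between 0.87 and 1.21 on the dimmest. With normexp background correction no Tdgf1 probe passed (TKO_26 0.52 and TKO_29 1.46 on the second probe, 0.87 and 0.92 on the dimmest), and with the authors' deposited matrix values the second probe did not pass in TKO_26 (0.69). The RefSeq table lists a pair of Tdgf1 pseudogenes, Tdgf1-ps1 and Tdgf1-ps2, and whether the probes also read RNA from them was not tested.

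RefSeq promoter windows (GRCm38.p6, 300 bases around the transcription start) were used here for 4 of the 9 genes. Those of Tdgf1, Cer1 and Nodal are shown because Tdgf1 rose on its second and dimmest probes, Cer1 fell and Nodal stayed near WT. Capitals mark matches, on either strand, to TGTNNATT, a core of the motif bound by Foxh1, and to CAGAC, a motif bound by SMADs. No match to one overlapped a match to the other.
Tdgf1 (chr9:110946109-110946408, minus strand): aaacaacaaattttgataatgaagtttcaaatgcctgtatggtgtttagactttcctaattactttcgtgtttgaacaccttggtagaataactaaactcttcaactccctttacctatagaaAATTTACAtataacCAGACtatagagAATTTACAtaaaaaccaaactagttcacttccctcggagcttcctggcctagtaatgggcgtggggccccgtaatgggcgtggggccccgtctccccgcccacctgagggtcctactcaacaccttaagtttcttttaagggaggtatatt
Cer1 (chr4:82885102-82885401, minus strand): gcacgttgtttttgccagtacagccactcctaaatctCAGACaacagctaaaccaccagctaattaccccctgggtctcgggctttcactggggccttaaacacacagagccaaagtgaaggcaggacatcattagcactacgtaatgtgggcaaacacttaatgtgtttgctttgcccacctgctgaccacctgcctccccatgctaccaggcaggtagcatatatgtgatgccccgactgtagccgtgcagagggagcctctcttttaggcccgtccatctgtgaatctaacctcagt
Nodal (chr10:61417722-61418021, plus strand): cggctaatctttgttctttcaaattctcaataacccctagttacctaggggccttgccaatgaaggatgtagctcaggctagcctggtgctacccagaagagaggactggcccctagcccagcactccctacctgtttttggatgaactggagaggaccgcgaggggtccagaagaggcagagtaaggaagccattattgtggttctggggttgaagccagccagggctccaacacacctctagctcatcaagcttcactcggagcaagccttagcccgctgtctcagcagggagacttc

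The Tdgf1 window holds 2 matches to TGTNNATT, on either side of 1 match to CAGAC. That of Cer1 holds 1 match to CAGAC and 0 to TGTNNATT, and that of Nodal holds 0 of both. Of 32851 windows in the table, 12.2% hold TGTNNATT and 49.6% hold CAGAC. The windows hold 7 CpG sites for Tdgf1, 6 for Cer1 and 5 for Nodal, near the median of 7 over all windows. Furin, not shown, has 2 windows, and they are unlike in CpG. One holds 51 CpG sites, at percentile 99.4 of all windows, and 1 match to CAGAC. The other holds 7 CpG sites and 2 matches to CAGAC, and both hold 0 to TGTNNATT. CpG is the dinucleotide whose methylated form TET enzymes oxidise, and methylation was not measured here.

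Foxh1, the forkhead factor that brings SMAD2 and SMAD3 to Nodal targets, did not differ beyond its spread. It read -1.07 and -1.57 in TKO_26 and -1.51 and -1.40 in TKO_29, against -1.75 and -1.51 in WT. The groups overlapped, and TKO_26 replicate 1, the noisiest array, was the highest. The difference was 0.31 in TKO_26 (95% interval -0.25 to 0.87, limma adjusted p = 0.358) and 0.18 in TKO_29 (-0.38 to 0.74, adjusted p = 0.538).

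Smad7, an inhibitory SMAD that blocks activated receptors and is induced by TGF-beta family signals, was lower in TKO_29. It read -4.36 and -4.32 in TKO_26 and -4.81 and -4.70 in TKO_29, against -4.10 and -4.03 in WT. Every TKO array lay below both WT arrays, with TKO_29 lowest. The difference of -0.69 ± 0.12 in TKO_29 had an adjusted p of 0.0154 at less than 2-fold, and that of -0.28 ± 0.12 in TKO_26 did not pass (limma adjusted p = 0.184).

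Furin, a protease that cleaves the Nodal precursor, had a like order. It read -1.27 and -1.45 in TKO_26 and -1.84 and -1.60 in TKO_29, against -0.47 and -0.80 in WT, with no overlap. In TKO_29 it was 2.12-fold lower (log2 -1.08 ± 0.19, SE; limma adjusted p = 0.0137), and in TKO_26 1.65-fold lower (-0.73 ± 0.19, adjusted p = 0.0540). The TKO_29 call was lost without either TKO_29 array (adjusted p = 0.0880 and 0.0725) and without WT replicate 1 (adjusted p = 0.0636). The TKO lines did not differ past the threshold for Furin (0.36, adjusted p = 0.291) or Smad7 (0.41, adjusted p = 0.156).

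**Figure D2:**
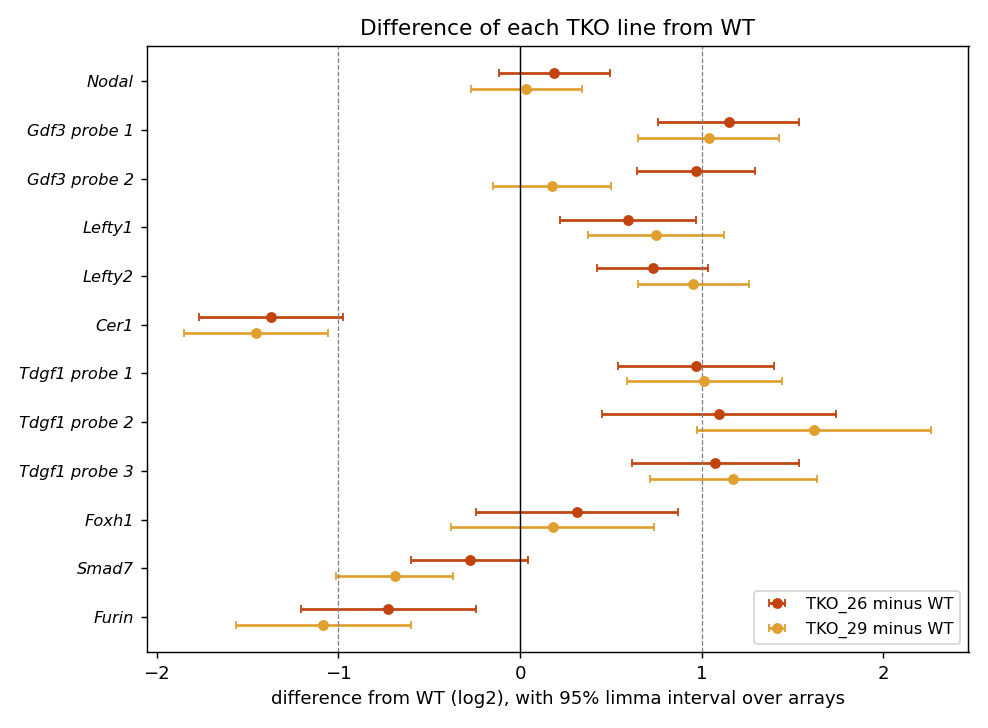
Log2 difference from WT (x axis) of each member probe in TKO_26 and TKO_29, with 95% limma intervals over arrays; dashed lines mark 2-fold. Gdf3 probe 1, Lefty1, Lefty2 and Tdgf1 lie above 0 in both lines, Cer1 lies near -1.4 in both, and the intervals of Nodal and Foxh1 cross 0.

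Counting a line as 1 replicate gave no member call. On line averages (TKO n = 2, WT n = 1), 0 of the 12 probes passed with limma, beside 0.746% of all probes (211, of which 31 were higher, and 1720 with 607 higher in the authors' deposited matrix values). At an unadjusted p under 0.05, 5 of the 12 passed, beside 17.3% of all probes. These were Cer1 (-1.41 ± 0.33, SE; adjusted p = 0.155), Gdf3 probe 1 (1.09 ± 0.33; adjusted p = 0.228) and the 3 Tdgf1 probes (0.99 to 1.36; adjusted p = 0.215 to 0.254). Each of these 5 had the same direction in both TKO lines, which picking them on the line averages favours.

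The TKO lines were also set against each other, and 0 of the 12 member probes passed (limma adjusted p under 0.05 and 2-fold), beside 0.428% of all probes. At an unadjusted p under 0.05, 2 of the 12 passed, the dimmer Gdf3 probe and Smad7, beside 22.5% of all probes.

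**Figure D3:**
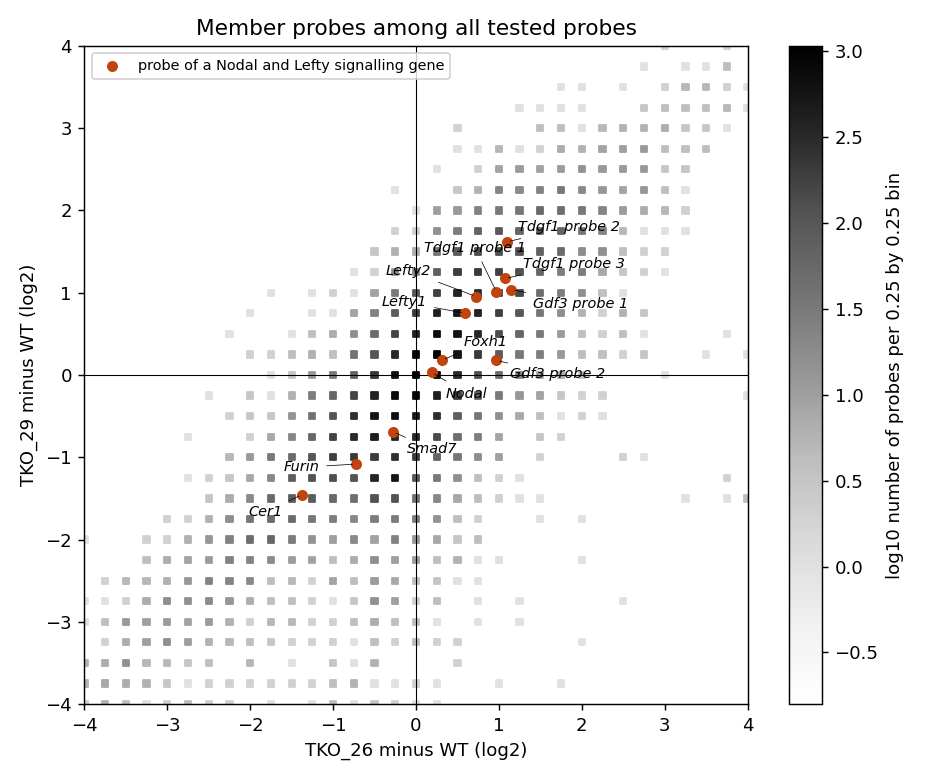
Difference of TKO_26 from WT (x axis, log2) against that of TKO_29 from the same WT arrays (y axis, log2) for all tested probes, binned (grey, darker for more probes), with the 12 member probes in red; the axes share the WT arrays. Tdgf1, Gdf3 probe 1, Lefty1 and Lefty2 lie up and to the right, Cer1 and Furin down and to the left, and Nodal and Foxh1 near the middle. Probes beyond 4 on either axis are not shown.

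Of 44 other genes of the pathway, 41 were tested, each on its brightest probe; Acvr1c, Mixl1 and Wwtr1 were not. Of the 41, 2 rose and 5 fell, beside 3.97% and 8.03% of named genes. Their median difference was 0.15 in TKO_26 and 0.03 in TKO_29, beside -0.01 and -0.04 over the 14578 named genes tested. Without WT replicate 1 the calls numbered 4, 1 higher and 3 lower.

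Among ligands and convertases, Bmp4, a BMP ligand, fell by 1.90 in TKO_26 and 2.15 in TKO_29 (limma adjusted p = 0.00353 and 0.00228). Pcsk5, a convertase related to Furin, fell by 1.04 and 1.03, a call near the 2-fold line that was lost without any 1 array other than TKO_26 replicate 1 and under 3 other scalings and the authors' matrix values. The other 5, Gdf1, Gdf11, Inhba, Inhbb and Pcsk6, did not pass.

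Cfc1 (Cryptic), the other EGF-CFC co-receptor for Nodal, moved against Tdgf1. It read -0.89 and -0.998 in TKO_26 and -1.41 and -1.57 in TKO_29, against 0.32 and 0.19 in WT. Cfc1 fell by 1.20 in TKO_26 and 1.75 in TKO_29 (limma adjusted p = 0.00702 and 0.00233), and its call was lost without WT replicate 1 (TKO_26 adjusted p = 0.0551). The receptors Acvr1b, Acvr2a and Acvr2b did not pass.

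None of the 7 transducers and cofactors tested passed. The largest mean difference among them was that of Smad2, a receptor-activated SMAD, at -0.39 in TKO_26 and -0.46 in TKO_29 (limma adjusted p = 0.0835 and 0.0389). The related Smad3 was at -0.14 in TKO_26 and -0.28 in TKO_29, and the shared partner Smad4 at -0.30 and -0.52 on its brighter probe and 0.11 and 0.61 on the dimmer.

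Of 5 other secreted inhibitors, Fstl3, which binds activins, fell by 1.97 in TKO_26 and 1.64 in TKO_29. Nog (Noggin), a BMP antagonist, rose by 1.07 and 1.01 (limma adjusted p = 0.0403 and 0.0322), a call that was lost without each of the 6 arrays in turn (TKO_26 difference 0.85 to 1.28), with normexp (0.58) and with the authors' deposited matrix values (0.66). Of 10 intracellular inhibitors, Smad6, an inhibitory SMAD that acts mainly on BMP signals, fell by 1.82 and 1.90, and the others did not pass.

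Of 8 target genes of the streak and node, Gsc (goosecoid), a homeobox gene induced by Nodal and activin, rose. It read -1.77 and -1.74 in TKO_26 and -1.67 and -1.65 in TKO_29, against -3.04 and -3.25 in WT. The difference was 1.40 ± 0.13 in TKO_26 and 1.49 ± 0.13 in TKO_29 (SE; limma adjusted p = 0.00440 and 0.00313), and no left-out array ended the call. The other 7, among them Lhx1, Foxa2 and Otx2, did not pass in both lines. Otx2 read 1.60 on TKO_29 replicate 1, against 2.70 on TKO_29 replicate 2. The pathway genes Acvr2b (1.64 against 2.55), Tgif1 (1.30 against 2.27) and Drap1 (1.58 against 2.34) were likewise lower on that array. The cause of this spread was not tested. T (Brachyury) passed in TKO_26 (1.15, limma adjusted p = 0.00583) and was higher by less than 2-fold in TKO_29 (0.62, adjusted p = 0.0193). Fgf8 was at 0.56 in TKO_26 and 0.73 in TKO_29 on its brightest probe and passed in neither. Its second probe was at 0.89 and 1.47 (limma adjusted p = 0.0427 and 0.0083) and passed in TKO_29 only. Sox17, an endoderm transcription factor, was lower by less than 2-fold on its brighter probe (-0.54 in TKO_26 and -0.65 in TKO_29, limma adjusted p = 0.0383 and 0.0162).

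**Figure D4:**
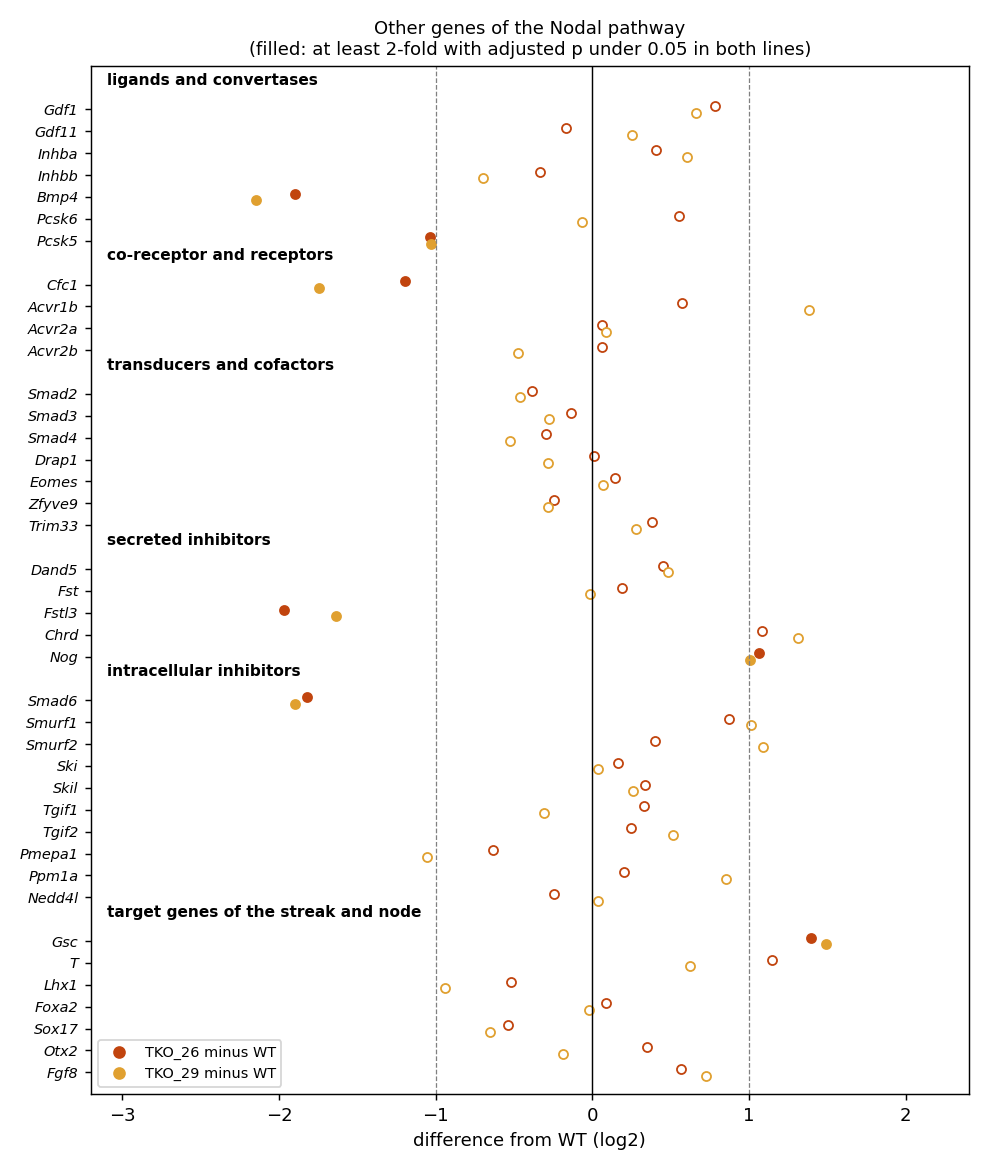
Log2 difference from WT (x axis) of other tested pathway genes by role, TKO_26 above TKO_29 for each gene; filled points mark genes at least 2-fold different with adjusted p under 0.05 in both lines. Gsc and Nog lie to the right, and Bmp4, Pcsk5, Cfc1, Fstl3 and Smad6 to the left.

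Stem cells express Nodal, the Lefty genes, Tdgf1 and Gdf3, and markers of pluripotent cells stood partly higher in TKO. Of 10 such genes 3 rose (Nanog, Sox2 and Dppa4) and none fell, with median differences of 0.99 in TKO_26 and 0.53 in TKO_29. Their summed linear scaled signal was 20.7 to 25.4 in TKO_26 and 13.3 to 18.4 in TKO_29, against 15.3 to 20.6 in WT. By this sum TKO_26 lay just above WT and TKO_29 overlapped it. The brightest probes weigh most in it, and the low TKO_29 sum was that of replicate 1, the array with the highest 75th percentile. There Dppa5a and Utf1 read 1.21 and 1.30, against 2.19 and 2.28 on TKO_29 replicate 2. Saturation is given here for the member probes only, so its part in these values is open. Zfp42 was at -0.98 in TKO_26 and -0.93 in TKO_29, and Dppa5a at -0.39 and -1.34, and neither passed. All 10 were well above background on every array. None (0) of the 3 calls remained without either TKO_29 array, and 1 passed without TKO_26 replicate 1 or without WT replicate 1. Of 5 streak and nascent mesoderm genes tested, Gsc rose and Mesp1 fell, with sums of 1.53 to 1.64 in TKO_26 and 1.56 to 1.79 in TKO_29, against 1.03 to 1.14 in WT. Mesp1, well above background on 3 of 4 TKO arrays, was at least 4.79-fold lower over both lines, and its call was lost with normexp (TKO_26 -1.38, limma adjusted p = 0.0797). The part of these markers in the differences of Tdgf1, Gdf3, Lefty1 and Lefty2 was not tested.

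The heart, blood and vessel markers and the feeder markers checked the tissue. All 5 heart genes fell, with sums of 0.383 to 0.402 in TKO_26 and 0.393 to 0.394 in TKO_29, against 18.2 to 19.0 in WT. Of 5 blood and endothelial genes 3 fell (Hbb-bh1, Hba-x and Cdh5), and Hbb-bh1 and Hba-x had no TKO array well above background. The endothelial marker Pecam1 did not fall, at 0.46 in TKO_26 and 0.57 in TKO_29 (limma adjusted p = 0.359 and 0.209). Kdr, an endothelial receptor, was at 0.19 in TKO_26 and -1.16 in TKO_29 on its brightest probe, but its second probe fell, with differences of -5.87 and -6.03. Of 4 tested neuroectoderm genes 1 fell (Tubb3). That call was lost with normexp and without any 1 array other than WT replicate 2 (TKO_26 difference -1.25 to -1.80). Sox1 and Pax6 were higher in both lines but passed in TKO_29 only (1.90 and 1.71, limma adjusted p = 0.0211 and 0.0435). Pax6 was well above background on only 1 WT array. Nes was lower by less than 2-fold (-0.72 in TKO_26 and -0.74 in TKO_29). Of 4 fibroblast feeder genes 2 fell (Col3a1 and Pdgfrb). Thy1 was higher by less than 2-fold (0.77 in TKO_26 and 0.69 in TKO_29, limma adjusted p = 0.0169 and 0.0153), and Col1a1 did not pass.

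For 4 members the named genes with the nearest profile were found by the root mean square difference of centred log2 values over the 6 arrays, among 11530 genes above background on all of them. Nearest to Nodal were Rnf8, Slc52a2 and Dnaaf3, within 0.02. Nearest to Lefty1 were Seh1l, Rcl1 and Coprs (0.02 to 0.04), and nearest to Lefty2 were Rtl6, Dhodh and Esrp2 (0.04 to 0.05). Nearest to Tdgf1, on its brightest probe, were Coq8a, Pim3 and Kash5 (0.04 to 0.07). The 6 arrays come from 3 lines, so such nearness is a description of these lines.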

How the data were processed

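Cy3-labelled RNA was read on Agilent mouse arrays of 1 colour designed on mm9. Per the file headers, the deposited intensity values come from Agilent's Feature Extraction, version 10.5.1.1, with background subtracted and detrended within each array. The authors' deposited matrix holds log2 values, and how it was made was not stated in the files. Each column followed its own array's log2 median signal (r 0.995 to 1.00). That of TKO_29 replicate 1 matched another array slightly more closely (r 0.9963) than its own (r 0.9962), so the correlation does not identify that array. The column medians were 6.86 to 6.89. Scale and direction were settled in this way, and genes were not centred.

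Control spots and outlier spots were left out, which lost 263 of 55681 probes. Repeated spots were averaged as log2 values. Signals were scaled by each array's 75th percentile over 19178 probes. Accessions were matched to RefSeq (GRCm38.p6), naming 49.4% of probes. The build differs from the array's, so only names, chromosomes and gene order were used. A probe was tested if both arrays of some line had it well above background. limma 3.58.1 in R 4.3.3 was fitted to every probe (3 residual degrees of freedom over 6 arrays in 3 groups, 1 on line averages), with Benjamini-Hochberg adjustment over all probes. WT was assumed to vary like the TKO lines. Intervals are limma's 95% intervals. The fits were tested on simulated data.

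Named genes were every member probe, pathway genes called in both lines (or, in a role with none, the one with the largest mean difference), and 3 nearest profiles for each of 4 members. Where a gene was not above background on every dim array, its fold is a bound, taken against the lowest signal well above background. The members and lists were chosen with earlier results of these data known. The normexp alternative used median spot signals, the spot signal that the files hold, in place of the planned mean signals. Precision is limited by the number of arrays and lines. Some results for neighbouring and pathway genes are not reported here.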

Additional observations from a re-analysis of the deposited data

How the results depend on the processing

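The 12 member probes were tested under 16 alternatives, of which the one without the 2-fold threshold was chosen after seeing the data. Over all differences and alternatives run, 680 kept direction and side of the threshold, 42 lost and 16 gained a call, and 6 changed sign. With normexp these were Nodal in TKO_29 (-0.0081) and the TKO_26 minus TKO_29 differences of Cer1 (-0.28) and Foxh1 (-0.011). The others were that of Cer1 with the authors' matrix (-0.22) and with 1 array left out (-0.051 without TKO_29 replicate 2, highest 0.21), and that of Foxh1 with 1 array left out (-0.12 without TKO_26 replicate 1, highest 0.39). None of these 6 was called. The causes were not tested. The 4 member calls became 2 with normexp, 0 with no filter on dim probes, 2 with 1 probe per gene (which leaves 9 probes) and 7 without the 2-fold threshold, and lay between 0 and 4 with 1 array left out. The 2832 probes called in both lines became 1367 with normexp, 1411 where a signal on all 6 arrays was required (fewer probes tested), 828 with no filter and 4932 without the 2-fold threshold, and 1245 to 2824 with 1 array left out. The 211 on line averages became 974 with normexp, 1720 with the authors' matrix, 1633 with a variance trend and 0 with quantile normalization, signal on all 6 arrays, no filter or 1 probe per gene, and 0 to 539 with 1 array left out. With the authors' matrix Cer1 passed on line averages, and with a variance trend Cer1 and the second Tdgf1 probe did. The 121 between the TKO lines became 293 with the percentile over all probes, 403 with the authors' matrix, 548 with signal on all 6 arrays, 266 with 1 probe per gene, 773 with a variance trend, 0 with quantile normalization, normexp, no filter or the replicate block, and 0 to 2020 with 1 array left out. Scaling moved the median TKO_29 difference of all probes, -0.03, to 0.12 (quantile), 0.11 (authors' matrix) and -0.29 (normexp). The labels' replicate numbers did not pair the arrays: deviations correlated at -0.21 (TKO_26 and TKO_29), 0.17 (TKO_26 and WT) and -0.13 (TKO_29 and WT). With the replicate block, 2548 probes and the same number of member probes, 4, were called in both lines, and Nog lost its call. Signal over background did not limit the member probes, which were well above background on all 6 arrays, but it limits markers such as Afp, whose TKO level has only an upper bound.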
